A study of Mus musculus with 24 samples.

Results

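Foxo1, Foxo3 and Foxp1 encode forkhead transcription factors that act throughout B-cell development, and open chromatin in and around their genes was followed through 3 stages of B-cell progenitors in the presence and absence of Ki-67. The loci were taken as each mm10 gene body with 10 kb on both sides, and all peaks there were used in all 24 libraries. Peaks of the libraries that overlapped were joined to regions. The 3 loci held 145 of the 117992 regions that reached 2 or more libraries of some group, 20 at Foxo1, 17 at Foxo3 and 108 at Foxp1. No other protein-coding gene lay within any of the 3 windows, and 140 of the 145 regions lay in a gene body.

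Accessibility was measured by ATAC-seq, in which a transposase cuts and tags DNA that is not wrapped or covered, so that a peak marks an open stretch. Progenitors were sorted from the bone marrow of mice that were WT or Mki67-/-, that is lacking Ki-67, which marks the nuclei of cycling cells. The 3 stages were taken in order, pre-pro-B first, then pro-B and last small pre-B cells, which gives 6 groups of 4 libraries: WT pre-pro-B, Mki67-/- pre-pro-B, WT pro-B, Mki67-/- pro-B, WT small pre-B and Mki67-/- small pre-B. The labels give no age, strain or treatment, do not describe the Mki67 allele, and do not say whether each library came from its own mouse. The p-values therefore measure the spread between libraries, which may be technical in part, and p-values between stages may be too small where libraries share a mouse.

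Foxo proteins activate genes of quiescence, survival and differentiation and are moved out of the nucleus when the kinase Akt, acting below PI3-kinase, phosphorylates them. In B-cell progenitors Foxo1 is known to drive the genes of the interleukin-7 receptor and of the Rag recombinase, and Foxo3 is a close relative with overlapping targets. Foxp1 is a forkhead factor that acts mostly as a repressor and is required for early B-cell development. Its gene is very long and has several transcription starts.

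Each library had its own list of 54387 to 88946 merged peaks, with a background coverage, recovered from the peak statistics, of 1.86 to 5.3. The lists of pre-pro-B libraries were longer on average and their peaks wider, with a median width of 419 to 552 bp per library against 293 to 314 bp for pro-B libraries and 246 to 303 bp for small pre-B libraries. Stages were therefore compared among the 40000 peaks of highest −log10 q in each library, called the strongest peaks below, and genotypes over the deposited lists. Libraries that stood apart in list length or peak width were the second of WT pre-pro-B, the fourth of Mki67-/- pre-pro-B and the first of WT small pre-B and of Mki67-/- small pre-B. Without the last 3 of these, all 19 results kept their direction and their side of the threshold. Without all 4, the same held for 18 of the 19, with Foxp1 at a difference of 0 in the first step, and the exception is given with the regions. Peaks at 8 B-lineage marker genes summed to 22 to 30 per pre-pro-B library, 60 to 66 per pro-B library and 52 to 59 per small pre-B library, and 7 of the 8 had a peak in every pre-pro-B library. Peaks at 7 T- and NK-cell markers summed to 19 to 24 in pre-pro-B, 9 to 12 at the pro-B stage and 7 to 10 per small pre-B library. All 7 had a peak in every pre-pro-B library, whereas Cd3e, Cd8a and Ncr1 were at 0 in every pro-B and small pre-B library. Peaks at 5 myeloid markers summed to 14 to 19, 8 to 11 and 11 to 14. Sums at 4 early progenitor markers were 19 to 24, 14 to 18 and 10 to 15, at 3 plasmacytoid dendritic markers 6 to 9, 2 to 4 and 3 to 5, and at 3 erythroid markers 6 to 7, 5 to 8 and 5 to 7, with Gata1 at 0 in every library. The part of such cells in the regions seen at the pre-pro-B stage was not tested, and in these sorted populations fewer cells of a type and less open chromatin per cell cannot be told apart. The window of Mki67 itself held 2 to 7 peaks in WT and 1 to 7 in Mki67-/- libraries (median 3 in both), which does not check the genotype, since the labels do not say which part was deleted.

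The bases before the transcription starts are shown first. The region over each listed start had a peak in all 24 deposited lists, and 1 of these regions joined the strongest peaks between stages. Foxo1 lies on chromosome 3 from 52268337 to 52350109 (plus strand), Foxo3 on chromosome 10 from 42181845 to 42276695 (minus strand) and Foxp1 on chromosome 6 from 98925342 to 99522746 (minus strand). RefSeq on GRCm38.p6 lists 1 start each for Foxo1 and Foxo3, at the gene's 5′ end, and 3 for Foxp1, at 99520993, 99266515 and 99028298. The 250 bases before 4 of these 5 starts are given 5′ to 3′ on the gene's strand, with capitals for matches to any of the 9 motifs searched, of which 4 occurred.
Foxo1 (chr3:52268087-52268336, plus strand): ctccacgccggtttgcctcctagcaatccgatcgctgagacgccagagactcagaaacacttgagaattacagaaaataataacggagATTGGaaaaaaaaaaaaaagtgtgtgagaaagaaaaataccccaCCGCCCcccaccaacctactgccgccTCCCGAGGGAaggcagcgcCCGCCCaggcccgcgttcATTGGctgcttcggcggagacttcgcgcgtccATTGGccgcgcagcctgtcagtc
Foxo3 (chr10:42276696-42276945, minus strand): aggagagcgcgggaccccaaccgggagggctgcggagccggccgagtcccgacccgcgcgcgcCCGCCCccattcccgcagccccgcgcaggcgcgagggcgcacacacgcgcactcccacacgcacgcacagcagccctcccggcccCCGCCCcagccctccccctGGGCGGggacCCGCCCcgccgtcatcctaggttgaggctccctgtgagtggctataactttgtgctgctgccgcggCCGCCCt
Foxp1, start nearest the 5′ end (chr6:99520994-99521243, minus strand): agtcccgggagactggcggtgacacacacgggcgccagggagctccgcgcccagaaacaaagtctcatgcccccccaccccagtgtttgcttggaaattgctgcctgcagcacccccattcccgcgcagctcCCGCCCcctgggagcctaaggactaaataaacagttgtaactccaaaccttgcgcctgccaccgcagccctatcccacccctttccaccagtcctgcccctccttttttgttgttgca
Foxp1, start nearest the 3′ end (chr6:99028299-99028548, minus strand): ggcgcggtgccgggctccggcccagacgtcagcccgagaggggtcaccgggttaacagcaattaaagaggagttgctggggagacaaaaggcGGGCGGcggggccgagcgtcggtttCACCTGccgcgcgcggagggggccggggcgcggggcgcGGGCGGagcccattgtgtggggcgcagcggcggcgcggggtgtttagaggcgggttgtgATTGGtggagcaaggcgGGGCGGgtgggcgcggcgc
The motifs were searched on both strands and shares are of 32851 listed promoters of the same length. The GC box GGGCGG, held by 32.7% of promoters, had 2 matches at Foxo1, 5 at Foxo3, 1 at the upstream Foxp1 start and 3 at the downstream one. CCAAT, held by 33.8%, had 3 matches at Foxo1 and 1 at the downstream Foxp1 start. The motif of EBF, a factor that specifies the B lineage, was searched as TCCC followed after any 2 bases by GGGA and was held by 0.779% of promoters. It matched once at Foxo1, 92 bases before the start. The E2A motif, CAGGTG or CAGCTG, was held by 27.7% and matched once, 133 bases before the downstream Foxp1 start. The forkhead motif TGTTTAC (3.17%), ETS CCGGAAG (6.91%), PU.1 GAGGAAG (10.6%), Runx TGTGGTT (4.4%) and the TATA box as TATAAA (12.4%) had no match in any of the 5 windows. CpG dinucleotides numbered 20 at Foxo1, 31 at Foxo3 and 11, 3 and 34 at the Foxp1 starts from the 5′ to the 3′ side, so that the middle Foxp1 start, with 45.2% G and C, was the poorest in CpG.

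The starts of Foxo1 and Foxo3 were open in every library of every stage and genotype. The region over the Foxo1 start (chr3:52267596-52268857) was among the strongest peaks in 24 of 24 libraries, at a median rank, counted from the strongest peak, of 10799 at the pre-pro-B stage, 8962.5 at the pro-B stage and 9060 at the small pre-B stage (n = 8 each). The region over the Foxo3 start (chr10:42276287-42278354) stood higher, at median ranks of 2177, 848.5 and 565. Its ranks ran from 923 to 4117 at the first stage, from 672 to 1070 at the pro-B stage and from 487 to 682 at the last, so the small pre-B range overlapped the pro-B range at its edge and not the pre-pro-B range. Ranks come from lists of different lengths and are given as a description, with no test.

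Foxp1 had its starts open to different degrees. The region over the gene's 5′ end (chr6:99522502-99523784) and the one over the downstream listed start (chr6:99027214-99029147, +494.6 kb from the 5′ end) were among the strongest peaks in all 24 libraries. The start at 99520993, in the neighbouring +1.1 kb region (chr6:99520913-99522386), was among them in 1 of 8 pre-pro-B, 8 of 8 pro-B and 8 of 8 small pre-B libraries, a gain that passed the test (adjusted p = 0.00328). A peak was called there in all 24 deposited lists, at ranks of 36551 to 51732 at the pre-pro-B stage, 19656 to 24385 at the pro-B stage and 9713 to 14793 at the small pre-B stage, 3 ranges that did not overlap. The start at 99266515 (+256.5 kb, chr6:99265683-99266724) was among the strongest peaks in 2 of 8 pre-pro-B, 5 of 8 pro-B and 7 of 8 small pre-B libraries, and neither step passed (adjusted p = 0.344 and 0.628).

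**Figure D1:**
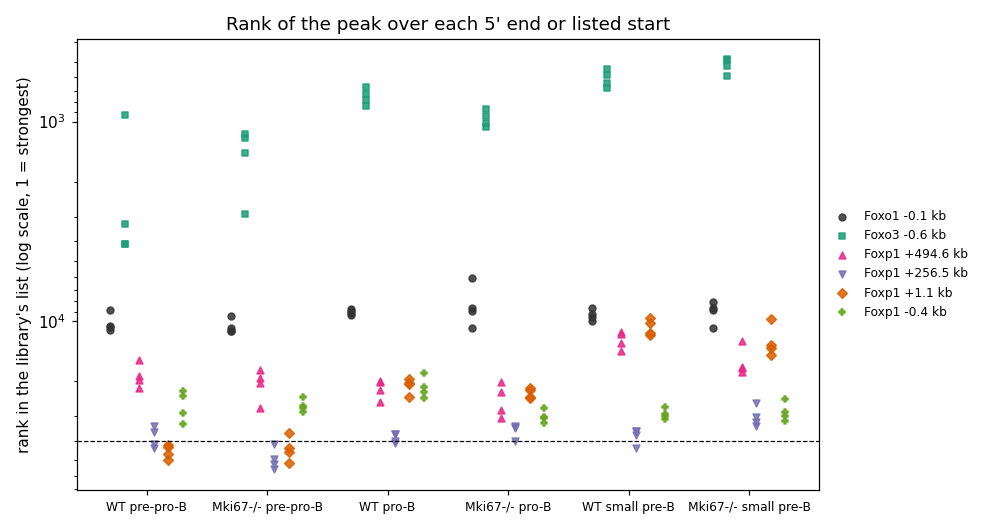
Rank of the peak over each 5′ end or listed start in each library's list (log axis, rank 1 strongest at the top), 4 libraries per group, named by the distance of the region's middle from the gene's 5′ end; the dashed line marks rank 40000. The Foxo3 start lay at ranks of 487 to 4117 throughout, and the Foxp1 +1.1 kb region moved from 36551 to 51732 in pre-pro-B libraries to 9713 to 14793 in small pre-B libraries.

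The number of strong peaks at Foxo1 showed no difference between stages that passed the test. The 4 libraries held 7, 6, 7 and 7 strongest peaks in WT pre-pro-B and 7, 6, 7 and 6 in Mki67-/- pre-pro-B cells. They held 7, 7, 6 and 8 in WT pro-B and 7, 6, 7 and 7 in Mki67-/- pro-B cells, then 7, 7, 6 and 6 in WT small pre-B and 5, 5, 5 and 7 in Mki67-/- small pre-B cells. The groups overlapped throughout. The mean went from 6.63 ± 0.518 at the first stage to 6.88 ± 0.641 at the pro-B stage and 6 ± 0.926 at the last (SD, n = 8 each), with adjusted p = 0.925 for the first step and 0.213 for the second (exact permutation test of stage within genotype, Benjamini-Hochberg over all genes). With the gene body alone the first step passed, at 1.75 more peaks (adjusted p = 0.00374).

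Among the 40000 strongest peaks, Foxo3 gained peaks from pre-pro-B to pro-B and lost part of them at the small pre-B stage. WT pre-pro-B libraries held 3, 5, 4 and 4 strongest peaks and Mki67-/- pre-pro-B libraries 5, 4, 5 and 4. All 4 WT pro-B libraries held 7, and Mki67-/- pro-B libraries held 7, 8, 8 and 7, so that every pro-B library lay above every pre-pro-B library. WT small pre-B libraries held 5, 6, 6 and 6 and Mki67-/- small pre-B libraries 6, 6, 6 and 5, all below every pro-B library. The mean rose from 4.25 ± 0.707 to 7.25 ± 0.463 (adjusted p = 0.00164) and fell to 5.75 ± 0.463 (adjusted p = 0.00467; SD, n = 8 each, same test), and the small pre-B mean was above the pre-pro-B mean (adjusted p = 0.00721). By background, 24.8% of 16218 genes tested gained and 21.1% lost peaks in the first step, 11.4% gained and 11.9% lost in the second, and 24.2% gained and 21% lost over both steps. The libraries fell into sets of 9 and 15 with few (18 to 25) and more (33 to 63) entries on chromosome Y, which were balanced at these first stages. Within each set Foxo3 went from 4.25 to 7.25 peaks (n = 4 against 4).

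Foxp1 held about as many strong peaks in pre-pro-B as in pro-B libraries and more in small pre-B libraries. WT pre-pro-B libraries held 35, 35, 40 and 34 and Mki67-/- pre-pro-B libraries 37, 35, 35 and 35, beside 36, 39, 36 and 39 in WT pro-B and 34, 36, 33 and 35 in Mki67-/- pro-B libraries. WT small pre-B libraries held 38, 50, 50 and 49 and Mki67-/- small pre-B libraries 44, 43, 45 and 44. All small pre-B libraries but the WT replicate with 38 lay above every library of the earlier stages. The means were 35.8 ± 1.91, 36 ± 2.14 and 45.4 ± 4.14 (SD, n = 8 each), with adjusted p = 1 for the first step, 0.0111 for the second and 0.00334 over both. No gene of 16349 had more strong peaks than Foxp1 in pre-pro-B or small pre-B libraries, and 1 had more in pro-B libraries. Per 100 kb the count was less apart, at 5.79, 5.83 and 7.35 peaks for Foxp1 against 3.7, 6.31 and 5.01 for Foxo3, 6.51, 6.76 and 5.9 for Foxo1 and a median over genes of 4.4, 4.44 and 4.45.

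These counts depended on how peaks were counted. In the deposited lists Foxo3 held 0.875 fewer peaks in pro-B than in pre-pro-B libraries (adjusted p = 0.279) and 3 fewer in small pre-B than in pre-pro-B libraries (adjusted p = 0.0039), opposite to the direction among the strongest peaks. From pro-B to small pre-B, the Foxo3 difference turned to 0.375 with the 20000 strongest peaks (adjusted p = 0.636) and did not pass at a −log10 q of at least 10 (−1.25, adjusted p = 0.187). The Foxp1 difference in that step was 3.63 peaks in the deposited lists (adjusted p = 0.38). By covered length in the strongest peaks, the difference at Foxp1 was −9469.5 bp for pro-B and −6220.25 bp for small pre-B against pre-pro-B libraries (adjusted p = 0.000862 and 0.00538), beside a median peak width at Foxp1 of 588 ± 70.6 bp at the pre-pro-B stage, 327 ± 14.4 bp at the pro-B stage and 367 ± 31.1 bp at the small pre-B stage.

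**Figure D2:**
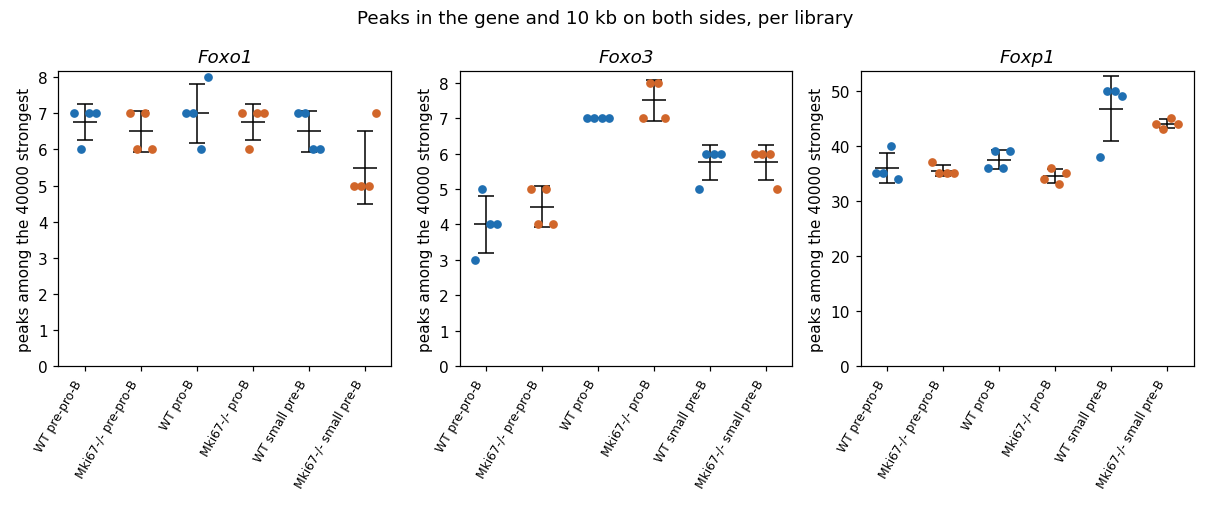
Peaks in each gene and 10 kb on both sides among the 40000 strongest of each library (blue WT, orange Mki67-/-), with the mean and SD of the 4 libraries of a group; the axes start at 0. Foxo3 held 7 or 8 peaks in every pro-B library against 3 to 5 in pre-pro-B libraries, and Foxp1 held 38 to 50 in small pre-B libraries.

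Peak by peak, regions were both gained and lost between pre-pro-B and pro-B cells, in shares near those of the whole genome. A region could be tested where at least 4 and at most 12 of the 16 libraries of a step had it among the strongest peaks, which held for 50 of the 145; 18 others were there in all 16 libraries and 61 in none. The condition keeps regions that differ between libraries, so shares are of those tested and not of all regions. Of these 50, 22 were gained (44.0%) and 24 lost (48.0%), beside 39.4% gained and 44.1% lost of 32102 regions tested over the genome. With no such condition, 18 were gained and 22 lost at the 3 genes, and 17.2% and 19% of the regions then tested over the genome. The number then tested at the 3 genes is not given here, so these counts and shares cannot be compared. At Foxo1 3 were gained and 2 lost of 7 tested, at Foxo3 3 and 1 of 5, and at Foxp1 16 and 21 of 38. From pro-B to small pre-B cells 14 of 29 tested were gained (48.3%) and 8 lost (27.6%), beside 30.4% and 39.6% of 19216 regions, while 29 of the 145 were in all 16 libraries and 71 in none. The 12 gained and 4 lost of 22 tested at Foxp1 made up most of these, and the split was 1 and 2 of 4 at Foxo1 and 1 and 2 of 3 at Foxo3. Over both steps 24 of 50 were gained and 19 lost, beside 36.2% and 45.3% of 29836 regions. Without the 4 libraries that stood apart 9 were lost. That leaves out 1 library of each group compared, which raises the smallest p the test allows. The share over all regions is not given for it, so 9 and 19 cannot be compared. In the deposited lists, which hold weaker peaks too, the balance of the second step turned, with 7 regions gained and 12 lost. Of all regions tested there 15.5% were gained and 33.6% lost, and the number tested at the 3 genes is again not given.

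**Figure D3:**
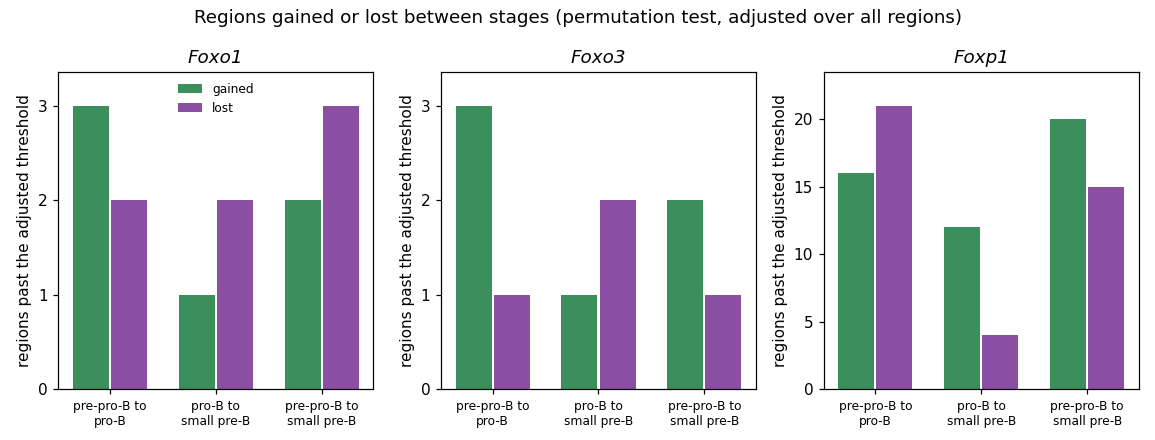
Number of regions gained (green) and lost (purple) in each step at each gene, past the threshold of 0.05 on adjusted p over all regions; the vertical scales differ between genes. At Foxp1 21 regions were lost and 16 gained from pre-pro-B to pro-B, and 4 lost and 12 gained from pro-B to small pre-B.

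At Foxo1 the regions that changed lay upstream of the start and along the gene. The −4.3 kb region, upstream of the start (chr3:52263807-52264346), was among the strongest peaks in 4 of 4 WT and 4 of 4 Mki67-/- pre-pro-B libraries and in 0 of 16 later libraries (adjusted p = 0.000825 for the first step). The +37.3 kb region (chr3:52305418-52305930) was likewise found in pre-pro-B libraries, in 4 of 4 WT and 2 of 4 Mki67-/-, and in none later. Both lacked any peak in the deposited pro-B lists. Toward the 3′ end, the +63.5 kb region (chr3:52331135-52332526) was among the strongest peaks in 1 of 8 pre-pro-B libraries and in all 16 later ones. It had a peak in all 24 deposited lists, at a median rank of 44387 first, 19166 at the pro-B stage and 28644.5 last. The +54.6 kb region (chr3:52322479-52323469) was among the strongest peaks in 1, 8 and 1 of 8 libraries and the +67.5 kb region (chr3:52335510-52336247) in 0, 5 and 0 of 8, so both joined the strongest peaks and left them again. They differed in the deposited lists, where +54.6 kb had a peak in 8, 8 and 7 of 8 libraries and +67.5 kb in 0, 8 and 1 of 8. The +14.6 kb region (chr3:52282714-52283183) moved in the second step, from 0 of 8 pro-B to 8 of 8 small pre-B libraries (adjusted p = 0.00175). It had no peak in the deposited pre-pro-B lists and a weaker one in all 8 pro-B lists, at a median rank of 55583 against 26195 at the small pre-B stage. The −5.7 kb region left the strongest peaks over both steps, from 6 of 8 to 0 of 8 libraries (adjusted p = 0.0148). Its deposited peak stayed in 8 of 8 libraries of each stage, at median ranks of 37953, 50667.5 and 46354.

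Foxo3 carried its clearest change in the last part of the gene. The +88.1 kb region (chr10:42188205-42188954) had no peak in any of the 8 pre-pro-B libraries, also in the deposited lists, and was among the strongest peaks in all 16 pro-B and small pre-B libraries (adjusted p = 0.000825). Its ranks were 3454 to 6849 at the pro-B stage and 9507 to 16925 at the small pre-B stage, ranges that did not overlap. The +81.6 kb region (chr10:42194603-42195501), also in the last part of the gene, did the reverse, with a peak in all 8 pre-pro-B libraries and none in the 16 later ones in either kind of list. Between them the +83.5 kb region (chr10:42192890-42193421) was among the strongest peaks in 0, 0 and 6 of 8 libraries (adjusted p = 0.0198 for the second step). It had a deposited peak in 7, 8 and 8 of 8 libraries. The +5.9 kb (chr10:42270636-42271039) and +50.3 kb (chr10:42226064-42226682) regions were among the strongest peaks in 8 of 8 pro-B libraries and in no library of the other stages. In the deposited pre-pro-B lists they had a peak in 7 and 2 of 8 libraries. Deposited lists of small pre-B libraries still held a peak at +5.9 kb in 0 of 4 WT and 4 of 4 Mki67-/- libraries and at +50.3 kb in 2 of 4 and 4 of 4, with a genotype p over all stages of 0.257 and 0.582 by exact permutation.

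**Figure D4:**
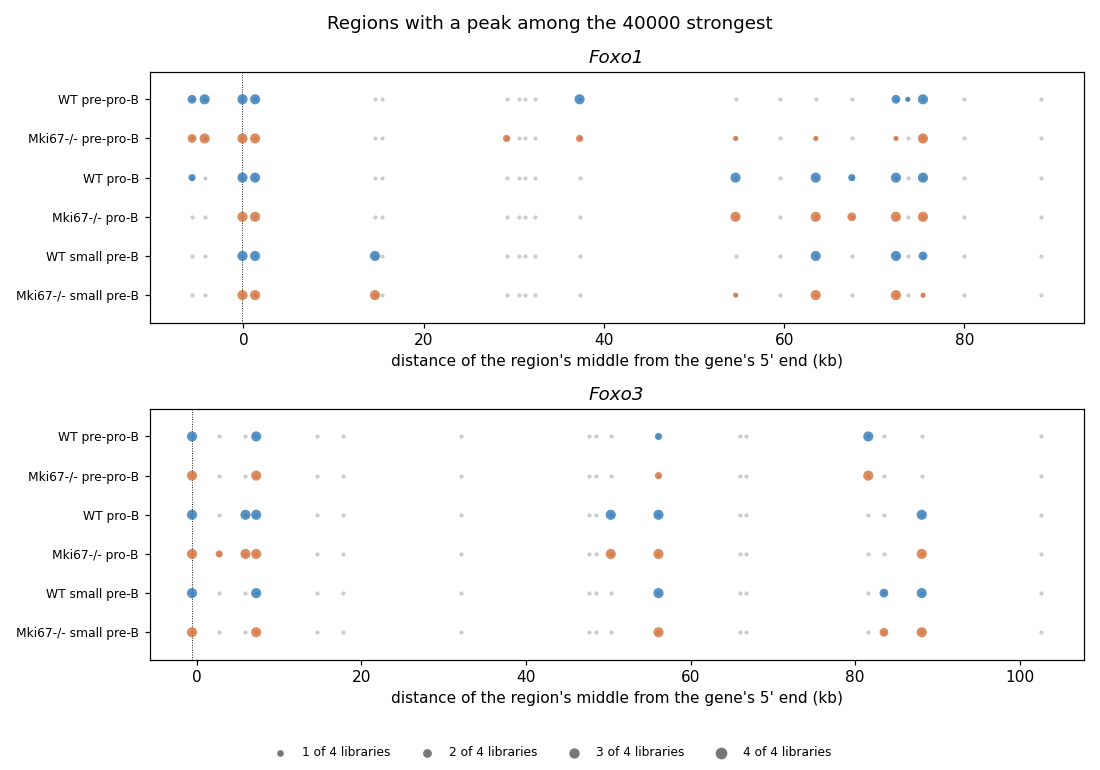
Regions at Foxo1 (top) and Foxo3 (bottom) by the distance of their middle from the gene's 5′ end in kb, 1 row per group (blue WT, orange Mki67-/-); larger dots mark more of the 4 libraries with the region among the 40000 strongest peaks, grey dots none, and the dotted line the region over the listed start. The start regions had large dots in all 6 rows, and the Foxo3 +88.1 kb region in the 4 lower rows only.

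Foxp1 changed along its whole length, with regions gained and lost side by side. Mean ranks were taken over the libraries with a deposited peak in the region, so weak peaks count against a region and missing ones do not. The gained region of highest mean rank was +172.1 kb (chr6:99350329-99351028), which had no deposited peak in 8 pre-pro-B libraries. It ranked 7540 to 10680 at the pro-B stage and 6205 to 7916 at the small pre-B stage. The +541.3 kb region (chr6:98981231-98981745) had the same distribution of 0, 8 and 8 of 8 libraries. At +109.0 kb (chr6:99413354-99414107) all 24 libraries had a peak, yet its median rank went from 65228 at the pre-pro-B stage to 4105 at the pro-B stage and 5615.5 thereafter. Within the pro-B stage the +468.6 kb region (chr6:99054027-99054333) was among the strongest peaks in 4 of 4 WT and 1 of 4 Mki67-/- libraries, and the +145.4 kb region (chr6:99377221-99377519) in 4 of 4 and 0 of 4. In the deposited pro-B lists both had a peak in 8 of 8 libraries, and no region of the genome was called by genotype among the strongest peaks either.

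The lost regions of highest mean rank at Foxp1 were +244.3 kb (chr6:99278062-99278821), +104.0 kb (chr6:99418252-99419226), +503.1 kb (chr6:99019262-99020095) and +251.3 kb (chr6:99271155-99271676), next to +280.9 and +471.9 kb. The first 4 had a peak in all 8 pre-pro-B libraries and in none of the 16 later libraries, in the deposited lists too. Close to the +244.3 and +251.3 kb regions, +248.3 kb (chr6:99274192-99274627) had the opposite pattern in the first step, with 0 of 8 pre-pro-B and 8 of 8 pro-B libraries. The pro-B stage also had the +291.0 kb (chr6:99231496-99232051) and +264.3 kb (chr6:99258260-99258650) regions among the strongest peaks in 8 of 8 libraries, against 0 of 8 before and 0 of 8 after. By distance, the stretch from 200 to 300 kb held 26 regions, the most of any 100 kb of the gene. Of these 5 were gained and 7 lost in the first step. The stretch from 400 to 500 kb held 12, of which 2 were gained and 4 lost, a share as high for both together.

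Some Foxp1 regions left the strongest peaks at the pro-B stage and returned at the small pre-B stage. Of the 12 regions gained in the second step, 4 had been lost in the first; over the 3 genes this was 4 of 14 (28.6%), beside 34.5% of the 5845 regions gained over the genome. The +280.9 kb region (chr6:99241276-99242343) was among the strongest peaks in 8, 1 and 8 of 8 libraries, at median ranks of 11717, 47042 and 23121.5. The +471.9 kb region (chr6:99050499-99051180) stood at 8, 0 and 8 of 8, +203.2 kb (chr6:99319159-99319965) at 8, 0 and 7 of 8, and +465.5 kb (chr6:99056969-99057618) at 6, 0 and 8 of 8. In the deposited pro-B lists all 4 still had a peak in some libraries, +280.9 kb in 8, +471.9 kb in 7, +203.2 kb in 4 and +465.5 kb in 2 of 8. The other 8 of the 12 were not among the regions lost before, and +164.5 kb (chr6:99358006-99358435) had no deposited peak in any of the 16 earlier libraries and one in all 8 small pre-B libraries. All 4 regions lost in the second step at Foxp1 had been gained in the first, among them +479.3 kb (chr6:99043098-99043819), which was kept among the strongest peaks in 0 of 4 WT and 4 of 4 Mki67-/- small pre-B libraries, with a deposited peak in 8 of 8. Foxo1 and Foxo3 lost 2 regions each in the second step, and these too had been gained in the first, which over the genome held for 73.8% of the 7613 regions lost.

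**Figure D5:**
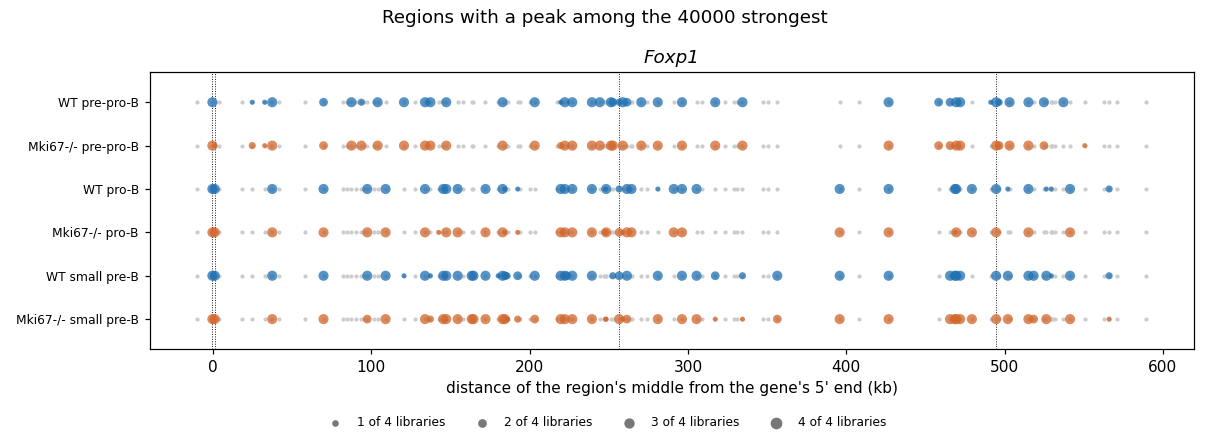
Regions at Foxp1 by the distance of their middle from the gene's 5′ end in kb, 1 row per group (blue WT, orange Mki67-/-); larger dots mark more of the 4 libraries with the region among the 40000 strongest peaks, grey dots none, and dotted lines the regions over the 5′ end and the 3 listed starts. The +172.1 kb region had dots in the 4 lower rows only, and the +244.3 kb region in the 2 upper rows only.

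Grouped by stage, with a region taken as present at a stage when in at least 7 of its 8 libraries and as absent when in at most 1, 17 of the 145 regions were among the strongest peaks at all 3 stages, 2 at Foxo1, 2 at Foxo3 and 13 at Foxp1. That is 11.7%, beside 15.6% of all regions. Another 11 (7.59%, beside 7.05%) were present at the pre-pro-B stage alone, 6 (4.14%, beside 2.51%) at pro-B alone and 7 (4.83%, beside 1.7%) at small pre-B alone. Present at pro-B and small pre-B were 9 (6.21%, beside 3.81%), and at pre-pro-B and small pre-B 3 (2.07%, beside 0.963%). None was shared by pre-pro-B and pro-B alone, beside 0.675% of all regions. The other 34 were mixed and 58 were present at no stage. In the deposited lists 20 regions (13.8%) went from a peak in all 8 pre-pro-B to none of 8 pro-B libraries and 19 (13.1%) from none to all, beside 11.6% and 8.86% of all regions. In the second step 1 did each (0.69%), +3.5 kb of Foxp1 lost and +164.5 kb gained, beside 2.46% and 1.47%.

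Loss of Ki-67 was not accompanied by a change at these genes that passed the test. Foxo1 held 16.1 ± 1.38 deposited peaks in WT and 15.2 ± 1.95 in Mki67-/- libraries (SD, n = 12 each), with p = 0.216 and adjusted p = 1 (exact permutation test of genotype within stage, two-sided). Foxo3 held 10.4 ± 1.78 and 11.5 ± 1.51, with permutation p = 0.0334 and adjusted p = 0.913. Foxp1 held 79.9 ± 4.19 and 74.8 ± 5.94, with permutation p = 0.0159 and adjusted p = 0.839; without the 4 libraries that stood apart the difference was −2.94 in place of −5.17 (permutation p = 0.118). Over all genes 0% of 17598 were called, with 893 at an unadjusted p under 0.05, and over regions 0% of 73102, with 1978 under 0.05. The smallest p the design allows is 5.83e-06.

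By stage, WT and Mki67-/- libraries overlapped at Foxp1 before the small pre-B stage. Foxp1 held 77, 80, 79 and 80 deposited peaks in WT and 75, 79, 87 and 74 in Mki67-/- pre-pro-B libraries. It held 74, 75, 76 and 81 in WT and 76, 69, 74 and 73 in Mki67-/- pro-B libraries. At the small pre-B stage it held 88, 81, 82 and 86 in WT and 62, 78, 73 and 77 in Mki67-/- libraries, which did not overlap, as was so with WT higher for 0.784% of the 17598 genes. Among the strongest peaks the same groups overlapped only through WT replicate 1, at 38 peaks beside 43 to 45 in Mki67-/- libraries. WT replicates 2 to 4 held 50, 50 and 49. The deposited lists had a mean of 65298 merged peaks in Mki67-/- and 70569 in WT small pre-B libraries. Their ranges overlapped, at 54387 to 71346 and 63332 to 85621, with the longest list at WT replicate 1. The part of list length in the Foxp1 counts was not tested. The genotype difference at Foxp1 went from −0.25 peaks in pre-pro-B to −11.8 in small pre-B libraries, and the change between the stages did not pass its test (p = 0.0735 by permutation, adjusted p = 1). At Foxo1 it went from 0.75 to −2.25 (permutation p = 0.0649, adjusted p = 1). Background coverage moved with genotype, with a mean at the small pre-B stage of 3.12 in WT and 2.58 in Mki67-/- libraries, and its part in these values was not tested. The small pre-B libraries held 17, 17, 15 and 16 peaks at Foxo1 in WT and 12, 17, 14 and 13 in Mki67-/- cells, and 10, 7, 9 and 8 at Foxo3 against 9, 10, 10 and 11.

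Of the 145 regions 95 could be tested by genotype, and 6 had an unadjusted p under 0.05 (6.32%, beside 2.71% of all regions tested); none passed after adjustment (adjusted p = 1). The Foxo1 +59.5 kb (chr3:52327682-52327897) and Foxp1 +330.9 kb (chr6:99191725-99191943) regions had a peak in 4 of 4 WT small pre-B libraries and in no other library (p = 0.0286 each by exact permutation). They were 216 and 219 bp long, and no peak there was among the strongest in any library. Foxp1 +524.8 kb (chr6:98997623-98998349) had a peak in all 8 pre-pro-B libraries, in none at pro-B and in 4 of 4 WT against 0 of 4 Mki67-/- small pre-B libraries. Foxp1 +248.3 kb, described above at the pro-B stage, went the other way, with 0 of 4 WT and 4 of 4 Mki67-/- small pre-B libraries (exact p = 0.0286). The lowest p was 0.0102, at Foxp1 +87.4 kb (chr6:99434891-99435703), where WT against Mki67-/- libraries stood at 4 and 4 at the first stage, 4 and 1 at the pro-B stage and 3 and 0 at the last. The sixth was Foxp1 +274.3 kb (exact p = 0.0306).

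Genes that code for the kinases and adaptors above Foxo changed in both directions among the strongest peaks. Of 20 such genes, 7 gained and 6 lost peaks from pre-pro-B to pro-B, beside 24.8% and 21.1% of all genes, and 6 gained and 0 lost from pro-B to small pre-B, beside 11.4% and 11.9%, with a median difference of 0.188 and 0.5 peaks against 0 over all genes in both steps. In the first step Pik3cb, a catalytic subunit of PI3-kinase, fell from 6.25 ± 0.886 to 1.88 ± 0.354 peaks (adjusted p = 0.00164, n = 8 each, by the same exact permutation test). From pro-B to small pre-B, the kinase gene Akt2 rose from 2.13 ± 0.354 to 3.38 ± 0.518 peaks (adjusted p = 0.00831), the adaptor Pik3ap1 from 12.1 ± 0.835 to 14.1 ± 0.991 and Pik3ca, another catalytic subunit, from 1.63 ± 0.916 to 3.5 ± 0.535 (adjusted p = 0.0149 each). Over both steps 9 of the 20 gained and 4 lost peaks.

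Among 26 genes known as targets of Foxo factors or Foxp1 in lymphocytes, 13 gained and 0 lost peaks in the first step, beside 24.8% and 21.1% of all genes, and 4 gained and 0 lost in the second, beside 11.4% and 11.9% (median difference 0.625 and 0.125), and over both steps 11 gained and 0 lost. Ebf1, itself a B-lineage specifier, rose from 4.88 ± 1.36 to 17.4 ± 1.6 peaks, Ikzf1, which encodes the lymphoid factor Ikaros, from 7.63 ± 0.744 to 10.3 ± 0.463, and Ccnd3, a D-type cyclin, from 11.1 ± 0.641 to 13.8 ± 1.49 (adjusted p = 0.00164 each). In the second step Irs2, an insulin signalling adaptor, went from 4 peaks in every pro-B library to 5 in every small pre-B library (adjusted p = 0.00467), and Bcl6, a repressor of the pre-B stage, from 4 ± 0 to 5.13 ± 0.641 (adjusted p = 0.0129).

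Of 15 other forkhead genes, 8 gained and 1 lost peaks in the first step, beside 24.8% and 21.1% of all genes, and 1 gained and 1 lost in the second, beside 11.4% and 11.9% (median difference 0.75 and 0), and over both steps 8 gained and 2 lost. Foxn3, a forkhead repressor, rose from 16.3 ± 1.39 to 19.9 ± 0.641 peaks and Foxk1 from 5.5 ± 0.535 to 8.63 ± 0.916, and Foxp4, a close relative of Foxp1, from 5 ± 0 to 8 ± 0.756 (adjusted p = 0.00164 each). Foxk1 then fell to 6.75 ± 1.16 and Foxn2 rose from 2 ± 0 to 2.88 ± 0.354 (adjusted p = 0.0129 each). No gene of the 3 lists was called by genotype. Blnk, Il7r and Syk stand in 2 of the lists, and some list genes, Blnk and Ebf1 among them, are also B-lineage markers. All these counts are of the strongest peaks, with the list lengths and peak widths that differ between stages as given for the 3 genes.

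The genes most like each of the 3 were found by the mean difference over the 6 group means, each as a share of the gene's highest, among 5275 genes with at least 3 peaks on average. Slx1b (0.0133), Ccdc124 (0.0159) and Sun2 (0.0167) were nearest to Foxo3. Tor1aip2 (0.0165), Map1s (0.0184) and Ets1 (0.0193) were nearest to Foxp1, and Shc4 (0.0205), Ikbke (0.0238) and Zbed5 (0.0253) to Foxo1. Ets1, a lymphoid transcription factor, held 9.25, 9.5, 9.5, 9.75, 12.5 and 11.8 peaks on average in the 6 groups in the order given above.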

How the data were processed

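Per the submitters' processing notes, the authors used Trimmomatic, MACS2, deepTools, DiffBind and DESeq2 on mm10, with no versions given; which step each served is not given in the sources used here. The authors deposited 1 peak list per library, called on that library alone. Their deposited score is −log10 q times 10, as an integer, and their deposited fold is the ratio of summit pileup to local background. The deposited −log10 p and −log10 q belong to the same summit, and the lowest −log10 q was 2, a q of 0.01. The last column the authors deposited, the summit's offset, was used for summits only. They served here to rank and filter peaks inside each list.

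Overlapping or touching entries of a library were merged, and 1 bp of overlap with a region counted as a peak in it. Genes were 21631 protein-coding genes and their flanks of 10 kb; those with peaks in 4 or more libraries were tested, and regions by genotype where 4 to 20 of 24 had one. Background coverage was recovered from the fold and p of 3000 summits. Read totals and exons were not used here, so no counting interval is given. Mean differences were tested by exact permutation, two-sided (smallest p 0.000408 for 8 against 8), Benjamini-Hochberg adjusted over all genes or regions, threshold 0.05. The test was checked on simulated Poisson counts per gene, with larger fold changes than those at Foxo1, Foxo3 and Foxp1. Peaks by region were not simulated. Python 3.11.15, numpy 2.4.6 and pandas 2.3.3 were used.

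The members, gene lists and markers were chosen with earlier results of these data known. Regions named are those over a start, up to 6 per gene, step and direction by mean rank, and those with a genotype p under 0.05; from each list up to 3 genes per step, by p and then size, and the 3 most alike genes. Some list genes that this rule takes are not reported here. Alternatives were 20000 strongest peaks, deposited lists, −log10 q of at least 5 or 10, other flanks, summits, covered length, no filter, a stricter overlap, a replicate block and each library left out. Leaving out 3 or 4 libraries was chosen after seeing the data.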

Additional observations from a re-analysis of the deposited data

Results flagged for a closer look

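Of 36 sets of 4 libraries (3 genes, 6 groups and 2 kinds of list), 9 had a library that stood out by Dixon's test at 95%. Its gap to the nearest of the others exceeded the critical share of the range. The test's rate of about 1 in 20 by chance is for continuous values. It does not hold for small counts with ties, so 9 of 36 is not shown to be an excess. In 5 of the 9 the other 3 libraries were equal and the gap was 1 peak. These were Foxo1 in replicate 2 of WT pre-pro-B (6 strongest peaks against 7) and of Mki67-/- pro-B (6 against 7), Foxo3 in replicate 1 of WT small pre-B and replicate 4 of Mki67-/- small pre-B (5 against 6 each), and Foxo3 deposited peaks in replicate 2 of Mki67-/- pro-B (11 against 12). Larger gaps were Foxo1 in replicate 4 of Mki67-/- small pre-B (7 against 5), Foxp1 in replicate 1 of Mki67-/- pre-pro-B (37 against 35) and Foxp1 in replicate 3 of WT pre-pro-B (40 against 34 to 35). The widest was Foxp1 in replicate 1 of WT small pre-B, with 38 strongest peaks against 49 to 50. That library also stood apart in its whole list, and without it Foxp1 gained 10.8 peaks from pro-B to small pre-B in place of 9.38.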

How the results depend on the processing

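Differences in peaks are later minus earlier stage, or Mki67-/- minus WT. From pre-pro-B to pro-B, Foxo1 (0.25) turned to −0.125 with 20000 strongest peaks, −1.25 at −log10 q of at least 10, −7.13 by summits and −971 bp by covered length, and passed at 1.75 in the gene body and 2.13 with 50 kb. Foxo3 (3) turned to −0.875 in deposited lists, −0.625 at −log10 q of at least 5 and −0.625 by summits, and did not pass by covered length (254.5 bp). Foxp1 (0.25) turned to −4.13 in deposited lists, −2 at −log10 q of at least 5, −0.75 in the gene body, −41.1 by summits and −9470 bp by covered length. From pro-B to small pre-B, the 20000 strongest peaks turned Foxo1 to 0.5 and Foxo3 to 0.375, and Foxo3 did not pass at −log10 q of at least 10 (−1.25). Foxp1 (9.38) did not pass in deposited lists (3.63) or at −log10 q of at least 5 (4.5) or 10 (4.38). From pre-pro-B to small pre-B, Foxo1 (−0.625) turned to 0.375 with 20000 peaks, 1.13 in the gene body and 0.5 with 50 kb, and passed by summits (−8.5) and covered length (−1412 bp). Foxo3 (1.5) turned to −3 in deposited lists, −2.63 at −log10 q of at least 5, −4.25 by summits and −681 bp by covered length, and did not pass at −log10 q of at least 10 (0.25) or with 50 kb (0.125). Foxp1 (9.63) turned to −0.5 in deposited lists, −28.6 by summits and −6220 bp by covered length, and did not pass at −log10 q of at least 5 (2.5) or 10 (4.38). Among regions, the first step gained 13 and lost 7 with 20000 peaks and lost 40 in deposited lists. The second lost 3 with 20000 peaks and gained 7 in deposited lists. Both steps together lost 4 with 20000 peaks, 36 in deposited lists and 9 without the 4 libraries that stood apart. The numbers tested at the 3 genes and the shares over all regions are not given beside these counts. Both change with the setting, so the counts are no result about these loci. Genotype differences with 20000 peaks turned to 0.25 at Foxo1 and −0.0833 at Foxo3. The cause was not tested.

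Peak counts showed no pairing by replicate number: deviations of same-numbered libraries correlated at −0.149 to 0.103 over 12 genotype pairs and at −0.0412 to 0.0401 over 24 stage pairs. The number was not without structure. In every pre-pro-B and pro-B group, replicates 1 and 2 had few chromosome Y entries and replicates 3 and 4 more. Whether same-numbered libraries share an origin is not given by the labels. With the replicate block, Foxo3 (−1.5) and Foxp1 (9.38) no longer passed from pro-B to small pre-B (adjusted p = 0.0722 each), and the other 17 results kept their call. At both genes every same-numbered pair of libraries changed in the same direction in that step. Both therefore stood at the smallest p the block allows, 0.00781 by exact permutation. No gene could pass at that limit in this step, so the block cannot decide on these calls.

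Leaving out each library in turn, 334 values kept their direction and call and 2 did not. Foxp1 from pre-pro-B to pro-B ran from −0.0833 to 0.917, and Foxo1 from pre-pro-B to small pre-B from −0.875 to −0.542, with adjusted p of 0.0404 to 0.39. A peak list gives calls and not reads, so a region without a peak was below the threshold of 0.01 on q in that library and is not shown to be closed.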
